A study of Mus musculus with 24 samples.

Results

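The SR protein genes followed here were Srsf1, Srsf2, Srsf3, Srsf4, Srsf5, Srsf6, Srsf7, Srsf9, Srsf10 and Srsf11. They were taken by symbol, 10 of the 22667 genes listed in the expression data, together with every exon and intron event that carried one of these symbols in the splicing data. This gave 23 of 54141 exon events and 29 of 160806 intron events, 52 in all, in 9 of the 10 genes. Srsf3 had no exon or intron event, only 4 splice-site entries, which were not analysed here.

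The samples were mouse cultures taken through neural differentiation, 24 poly(A)+ RNA libraries in 8 groups of 3. The stages were embryonic stem cells (ESCs) kept in 2i medium with LIF, neural progenitor cells (NPCs) at day 7, cells positive for the polysialylated adhesion molecule PSA-NCAM at day 10, purified with beads, and neurons replated at day 7 and grown for 14 more days. At each stage wild-type (WT, labelled wt/wt) cells were compared with slow/slow cells. Slow/slow cells carry the substitution R749H on both alleles of Polr2a, the gene of the largest subunit of RNA polymerase II, and were made by successive gene targeting in ESCs. The study describes the mutant enzyme as a slowly elongating form. The number of slow/slow clones was not given in the sources used here, and for differentiation WT cells were seeded at a lower density than slow/slow cells. Replicates were independent differentiation experiments.

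SR proteins bind short enhancer sequences in exons through RNA recognition motifs and recruit the spliceosome through a domain rich in arginine and serine, the RS domain. SR protein kinases phosphorylate that domain, and the transportin Tnpo3 carries the proteins into the nucleus. Many SR protein genes limit their own output through a poison exon, a cassette exon whose inclusion brings in a stop codon well before the last exon junction, so that the transcript is removed by nonsense-mediated decay (NMD). Retained introns in the same genes can act in a similar way or hold the RNA in the nucleus.

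Whether an exon event could act as a poison exon was read from the GENCODE annotation of GRCm38, by matching exon and flanking intron lengths, because the splicing coordinates are in mm9. The deposited forms of 3 exons matched an NMD transcript and no principal coding transcript. With an alternative exon boundary or flank, a reading added after the data had been seen, 7 more matched, which gave 10 exons in 5 genes. The 79-base Srsf9 exon among them is described apart from the others because its deposited form is coding. The 30-base windows shown here hold the stop codons in capitals, with 12 bases before and 15 bases after, because these codons define the exons whose inclusion is reported.
Srsf4-203, 207-base exon, chr4:131884376-131884405, plus strand: catgccccagctTAGagtgcttcaccctac
Srsf6-201, 268-base exon, chr2:162932952-162932981, plus strand: gccttttgccatTAGacgcagggtgatggt
Srsf7-203, 460-base exon, chr17:80205039-80205068, minus strand: agtcagtcgcctTGAttcagaatgtcacga
Srsf9-205, 358-base exon, chr5:115328414-115328443, plus strand: acggattcacagTAGaagtactccggactt
Srsf11-210, 109-base exon, chr3:158024194-158024223, minus strand: cctggttcagccTGAactatataccaggcc
Srsf11-212, 117-base exon, chr3:158023295-158023324, minus strand: gcttttgaaagtTGAgagcacacccctgga

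Each of these stop codons lay more than 50 bases before the last exon junction of its transcript, the distance at which NMD is usually triggered. The distances were 617 bases in Srsf4-203, 534 in Srsf6-201, 699 in Srsf7-203, 700 in Srsf9-205, 196 in Srsf11-210 and 67 in Srsf11-212. The Srsf4 exons of 184 and 174 bases follow the stop codon of the same transcript, and the Srsf7 exons of 107 and 130 bases are both parts of the 460-base exon. In 2 cases the deposited form is also a coding exon. The 165-base form of the Srsf6 exon lies in Srsf6-202, whose stop is 13 bases before the last junction, and the 79-base Srsf9 exon lies in Srsf9-204 with the stop after it. A 104-base Srsf2 exon lies downstream of the stop codon, in the NMD transcript Srsf2-202 and also in a principal coding transcript, and by the rule used here it was not called a poison exon.

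The libraries held between 32974432 and 104466886 counts, and every SR protein gene had at least 2397 counts in every sample. Polr2a read 158 to 763 CPM (read counts scaled to library size) across the samples, and these counts do not separate the alleles, so they do not check the genotype. The stage labels were checked against marker lists. The 5 ESC markers summed to 5013 to 5734 CPM in ESCs and to 75.5 to 127 CPM in neurons. The 4 tested neural progenitor markers summed to 272 to 289 CPM in WT NPCs, below the 400 to 407 CPM of WT ESCs. In slow/slow cells they summed to 339 to 369 CPM in NPCs beside 357 to 358 CPM in ESCs. The sum of this list thus did not bear out the NPC label in either genotype. Single readings are given here only for Pax6 and Fabp7, as under 1 CPM in all samples of a group or not. Pax6 was under 1 CPM in all WT ESC samples but not in all WT NPC samples. Fabp7 was under 1 CPM in all slow/slow ESC samples but not in all slow/slow NPC samples, and in all WT samples of both stages. A marker not under 1 CPM in all samples may have reached that level in only 1 library. As the WT sums fell, the other markers of the list together were lower in WT NPCs than in WT ESCs. The study itself reported Sox1, Pax6 and Nestin in NPCs of both genotypes, by staining or RT-qPCR. The 4 tested mature neuron markers summed to 607 to 683 CPM in WT neurons and to 195 to 205 CPM in slow/slow neurons. In WT PSA-NCAM+ cells the 5 markers of PSA-NCAM+ or young neuronal cells summed to 47.1 to 54.3 CPM, no higher than the 54.5 to 65.1 CPM of WT ESCs. The sum of this list thus did not bear out that label for WT cells. Its members Dcx and St8sia4 were under 1 CPM in all WT ESC and WT NPC samples, but not in all WT PSA-NCAM+ samples. The levels of the other members of this list are not given singly, so these readings do not stand for the list. The astrocyte markers Gfap and Aqp4 summed to at most 4.02 CPM in any sample. PSA-NCAM+ replicate 1 of each genotype stood apart from the other replicates in several of the values given here.

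Of the 10 SR protein genes, 8, 10, 10 and 5 were called higher in slow/slow than in WT cells in ESCs, NPCs, PSA-NCAM+ cells and neurons, and 0 were called lower at any stage. Of all genes 18.5%, 29.3%, 28.6% and 23.4% were called higher. The share of all genes called lower between genotypes is not given here. Counts called lower, also those of the related gene lists, are therefore not set against a background. The summed CPM of the 10 genes was 2648 to 2771 in WT and 3373 to 3459 in slow/slow ESCs, and 1773 to 1873 in WT and 2964 to 3038 in slow/slow NPCs. In neurons the sums were 1638 to 1751 and 2111 to 2131 CPM. WT and slow/slow sums did not overlap at these 3 stages, nor in PSA-NCAM+ cells. There WT libraries summed to 1799 to 2225 CPM. Slow/slow replicate 1 gave 2388 CPM, not far above them and well below the 3362 and 2968 CPM of the other slow/slow replicates. As RNA was measured in bulk, from cultures or from bead-purified cells, more cells with a high level and more RNA per cell cannot be told apart.

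**Figure D1:**
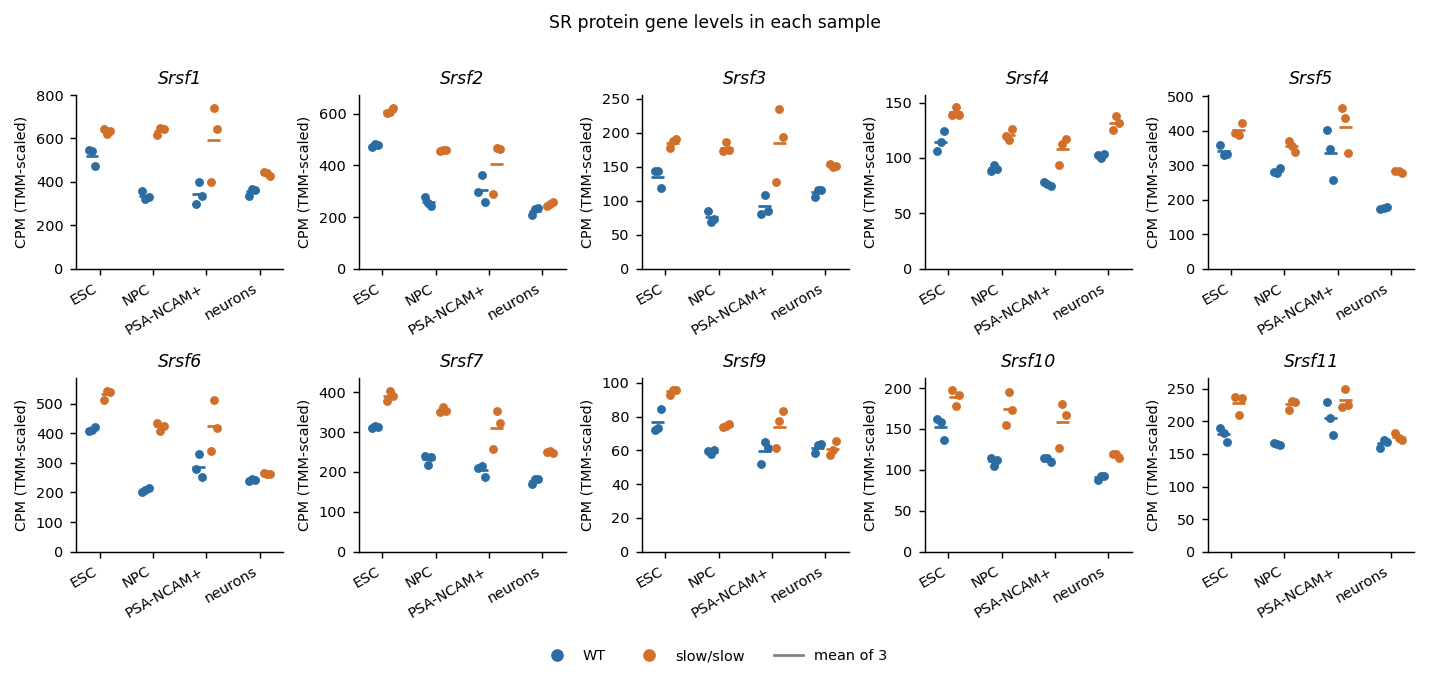
Level of each SR protein gene (TMM-scaled CPM, linear axis from 0) in every sample by stage, with WT in blue, slow/slow in orange, points for single samples and lines for the mean of 3. Slow/slow points lie above all WT points for all 10 genes in ESCs and NPCs, and the groups overlap for Srsf9 and Srsf11 in neurons.

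In ESCs 8 of the 10 genes were called higher in slow/slow cells by edgeR's quasi-likelihood test (Benjamini-Hochberg FDR under 0.05) and 0 lower, where 18.5% of all 16627 genes tested were called higher. All 10 genes were higher in slow/slow cells without overlap between the groups. The share of all genes whose groups did not overlap is not given here for any stage. Counts of genes without overlap, here and below, therefore only describe the members. Their log2 changes ran from 0.24 to 0.46 with a median of 0.31, beside a median of -0.02 over all genes. The 2 genes that did not pass were Srsf1 (log2 change 0.28, SE 0.14, FDR 0.129) and Srsf5 (0.24, SE 0.12, FDR 0.117). Several of the ESC calls were near the threshold. Without any 1 of the 6 ESC libraries Srsf2 had an FDR of 0.0654 to 0.0822. Srsf3 was lost without WT replicate 3 (0.0917) or slow/slow replicate 3 (0.0538), and Srsf9 without WT replicate 1 (0.0654) or 2 (0.0581). Srsf10 was lost without WT replicate 3 (0.106) or slow/slow replicate 1 (0.0679) or 3 (0.0543).

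In NPCs all 10 genes were called higher and 0 lower, where 29.3% of all genes were called higher, and the groups overlapped for none of the 10. The median log2 change was 0.64, beside 0.01 over all genes. Srsf3, the smallest SR protein and a regulator of both splicing and RNA export, showed the largest change of the 10. It read 84.9, 68.8 and 72.3 CPM in WT and 173, 186 and 174 CPM in slow/slow NPCs. Each slow/slow library was more than double each WT library (2.36-fold, log2 change 1.24, SE 0.15, FDR 1.2e-06). Srsf6, which has a pair of RNA recognition motifs and regulates many alternative exons, read 203, 207 and 214 CPM in WT and 436, 408 and 425 CPM in slow/slow NPCs (log2 change 1.03, SE 0.10, FDR 1.15e-07). Srsf1, the best studied SR protein, read 356, 323 and 331 CPM in WT and 614, 649 and 646 CPM in slow/slow NPCs (log2 change 0.92, SE 0.15, FDR 2.57e-05). The spread within each group was small beside these differences.

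The other genes rose less in NPCs. Srsf2, a nuclear-speckle protein that is also needed for the release of paused RNA polymerase II, changed by 0.82 on the log2 scale (SE 0.13, FDR 2.94e-05). Srsf10, which turns into a splicing repressor when dephosphorylated, changed by 0.66 (SE 0.10, FDR 1.91e-05), and Srsf7, which holds a zinc knuckle and also acts in export, by 0.61 (SE 0.084, FDR 5.05e-06). Srsf4, Srsf5, Srsf9 and Srsf11 had log2 changes of 0.41, 0.32, 0.34 and 0.45. Only Srsf5 depended on single libraries at this stage, with an FDR of 0.0657, 0.0686, 0.0804 and 0.0559 without WT replicate 1, WT replicate 2, slow/slow replicate 1 and slow/slow replicate 2. NPC cultures also differed in ESC markers, all 5 of them present at 1 CPM or more in both genotypes, with sums of 1887 to 1961 CPM in WT and 1114 to 1232 CPM in slow/slow cells. Neural progenitor markers summed to 272 to 289 CPM in WT and 339 to 369 CPM in slow/slow NPCs, and markers of PSA-NCAM+ or young neuronal cells to 29.8 to 30.1 CPM and 109 to 135 CPM. Endoderm markers overlapped between the genotypes, at 107 to 139 CPM. The part of these differences in the SR protein levels was not tested.

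In PSA-NCAM+ cells all 10 genes were again called higher and 0 lower, with 28.6% of all genes called higher, and for 6 of the 10 the groups did not overlap. The median log2 change was 0.49, beside -0.01 over all genes. Srsf3 read 81.0, 108 and 85.3 CPM in WT and 128, 235 and 193 CPM with the slow enzyme (log2 change 1.02, SE 0.15, FDR 1.02e-05). Srsf1 read 298, 400 and 333 CPM in WT and 401, 741 and 644 CPM with the slow enzyme (log2 change 0.79, SE 0.14, FDR 0.000109). For both genes slow/slow replicate 1 was the lowest of its group and lay only just above the highest WT library for Srsf1. The 4 genes whose groups overlapped were Srsf2, Srsf5, Srsf9 and Srsf11, with log2 changes of 0.41, 0.29, 0.32 and 0.19.

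The PSA-NCAM+ calls rested on the spread estimated over all stages. When the 6 PSA-NCAM+ libraries were fitted alone, 3 of the 10 genes were called. The share of all genes called in that fit is not given here. Srsf5 and Srsf11 were lost with DESeq2 size factors (FDR 0.0584 and 0.0724), upper-quartile scaling (0.0938 and 0.184) and the DESeq2 Wald test (0.054 and 0.0619). Leaving out replicate 1 of both genotypes kept all 10 calls. Of the single libraries, Srsf2 was lost without WT replicate 3, slow/slow replicate 2 or 3 (FDR 0.0707, 0.0795 and 0.0719) and Srsf9 without WT replicate 1 or slow/slow replicate 3 (0.0532 and 0.0648). Srsf5 was lost without WT replicate 3, slow/slow replicate 1 or 2 (0.279, 0.157 and 0.13), and Srsf11 without WT replicate 2 or 3 or slow/slow replicate 2 or 3 (0.0501, 0.285, 0.208 and 0.0601). ESC markers summed to 1295 to 1779 CPM in WT and 678 to 705 CPM in slow/slow PSA-NCAM+ cells, and markers of PSA-NCAM+ or young neuronal cells to 82.8, 208 and 298 CPM in slow/slow replicates 1, 2 and 3. Neural progenitor markers summed to 195 to 254 CPM in WT and 447 to 588 CPM in slow/slow cells. Their part in the SR protein levels was not tested.

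In neurons 5 of the 10 genes were called higher and 0 lower, where 23.4% of all genes were called higher, and for 8 of the 10 the slow/slow samples lay above all WT samples. The median log2 change was 0.33, beside -0.06 over all genes. Srsf5, a close relative of Srsf4 and Srsf6, changed most at this stage. It read 174, 176 and 178 CPM in WT and 284, 283 and 278 CPM in slow/slow neurons, tight groups far apart (log2 change 0.68, SE 0.12, FDR 8.49e-05). Srsf7 (0.49, SE 0.084, FDR 6.01e-05), Srsf3 (0.43, SE 0.15, FDR 0.0197), Srsf10 (0.37, SE 0.10, FDR 0.00449) and Srsf4 (0.36, SE 0.074, FDR 0.000426) were the other genes called.

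The 5 genes not called in neurons were Srsf1 (log2 change 0.30, SE 0.14), Srsf2 (0.16, SE 0.13), Srsf6 (0.12, SE 0.10), Srsf11 (0.08, SE 0.078) and Srsf9 (-0.01, SE 0.097). Srsf9 read 58.2, 62.9 and 63.7 CPM in WT and 57.0, 60.3 and 65.7 CPM in slow/slow neurons, and its groups overlapped fully. The neuron count depended on the model. It was 8 with upper-quartile scaling and 9 when the 6 neuron libraries were fitted alone. Upper-quartile scaling raised the median of all genes by 0.14 on the log2 scale and turned the Srsf9 value to 0.13. The share of all genes called in these alternatives is not given here. Srsf3 was lost without WT replicate 1 (FDR 0.0735) or slow/slow replicate 1 (0.052). Mature neuron markers, all 4 tested, were present at 1 CPM or more in both genotypes at the unequal sums given above. Mesoderm markers summed to 70.7 to 94.4 CPM in WT and 6.76 to 7.97 CPM in slow/slow neurons, oligodendrocyte markers to 26.0 to 33.7 CPM and 13.3 to 14.9 CPM, and endoderm markers to 10.5 to 11.3 CPM and 23.0 to 37.8 CPM. The part of these differences in the SR protein levels was not tested.

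**Figure D2:**
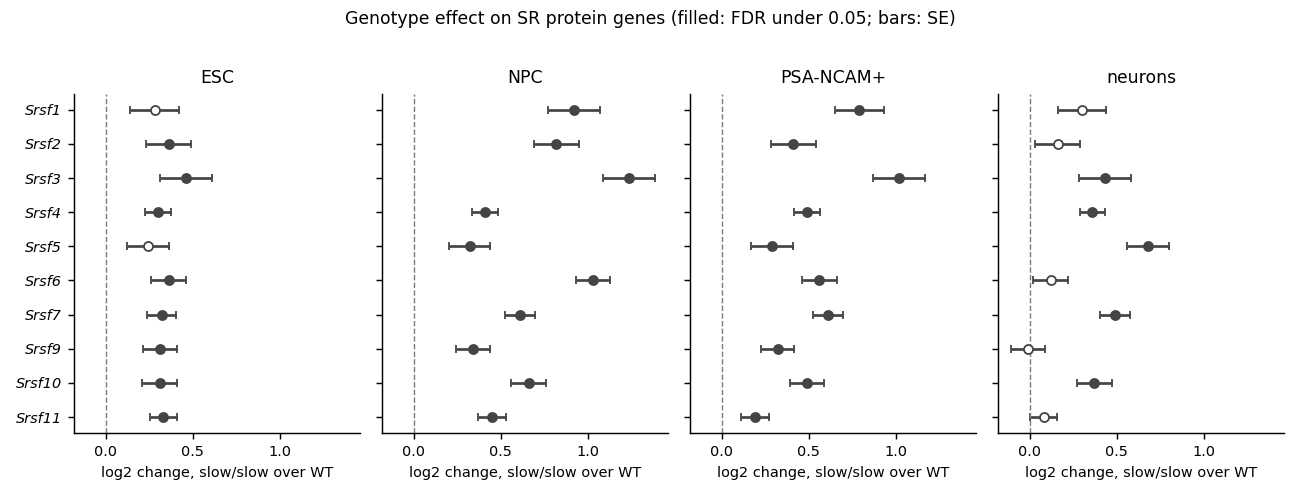
Log2 change of each SR protein gene in slow/slow over WT cells at the 4 stages, with bars for the SE of edgeR's quasi-likelihood fit and filled points for an FDR under 0.05. Changes run from 0.24 to 0.46 in ESCs and spread out to 0.32 to 1.24 in NPCs, and 5 open points remain in neurons.

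An interaction in the same model tested whether a later stage had another genotype effect than ESCs. Between NPCs and ESCs 3 genes passed, with 24.6% of all genes passing in either direction. The share of SR protein genes that passed was close to this background. The genes were Srsf3 (difference of log2 changes 0.78, SE 0.21, FDR 0.0099), Srsf6 (0.67, SE 0.15, FDR 0.00225) and Srsf1 (0.64, SE 0.20, FDR 0.027), all with a larger effect in NPCs. The Srsf1 call was lost without ESC WT replicate 1 (FDR 0.0606) or 2 (0.0598), ESC slow/slow replicate 2 (0.054), NPC WT replicate 2 (0.0584) or 3 (0.0554), or NPC slow/slow replicate 2 (0.0529) or 3 (0.0525). All 10 differences were positive, from 0.03 to 0.78.

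Between PSA-NCAM+ cells and ESCs 0 genes passed in edgeR, where 27.1% of all genes passed. At an unadjusted p under 0.05 there were 3, and DESeq2 called 2. Without PSA-NCAM+ slow/slow replicate 1 the count was 6, without PSA-NCAM+ WT replicate 2 it was 3 and without ESC WT replicate 3 it was 1. The share of all genes passing in each of these ways is not given here, so these counts only describe the members. Between neurons and ESCs 1 gene passed, where 42.1% of all genes passed. This was Srsf5 (0.44, SE 0.17, FDR 0.0417), which was lost when any library but ESC slow/slow replicate 3 was left out of the 12 (FDR 0.0525 to 0.0904).

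Most of the SR protein genes were lower after differentiation than in ESCs. In WT cells 8 of the 10 were called lower than in ESCs at the NPC stage (31.6% of all genes were), 8 at the PSA-NCAM+ stage (33.6%) and 7 at the neuron stage (39.4%). In slow/slow cells the counts at these 3 stages were 4 (28.4%), 6 (34.2%) and 8 (38.4%). The counts in NPCs were thus unequal between genotypes, and for Srsf1, Srsf3 and Srsf6 the interactions above test this difference. These comparisons all share the ESC samples.

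The largest decreases were those of Srsf2 and Srsf6. Srsf2 went from 473, 482 and 479 CPM in WT ESCs to 279, 256 and 244 CPM in WT NPCs and 207, 233 and 234 CPM in WT neurons, without overlap (log2 changes -0.88 and -1.09, SE 0.13 each, FDR 7.18e-06 and 1.72e-07). Its slow/slow levels were 605, 609 and 621 CPM in ESCs, 455, 461 and 460 CPM in NPCs and 244, 250 and 260 CPM in neurons. Slow/slow NPCs thus held nearly the Srsf2 level of WT ESCs, whereas slow/slow neurons were close to WT neurons. Srsf6 went from 408, 412 and 422 CPM in WT ESCs to 203, 207 and 214 CPM in WT NPCs (log2 change -0.99, SE 0.10, FDR 6.26e-08). In slow/slow cells it read 512, 543 and 539 CPM in ESCs and 436, 408 and 425 CPM in NPCs, a smaller decrease (-0.33, SE 0.10, FDR 0.00885).

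Srsf1 and Srsf3 were called lower in WT NPCs (log2 changes -0.63 and -0.84, FDR 0.00074 and 5.8e-05), whereas their slow/slow NPC levels overlapped those of slow/slow ESCs. For Srsf1 these were 614 to 649 CPM beside 622 to 642 CPM, and for Srsf3 173 to 186 CPM beside 177 to 190 CPM. Srsf5 behaved differently again. It was called lower in WT neurons (-0.95, SE 0.12, FDR 3.32e-07) and in slow/slow neurons (-0.51, SE 0.12, FDR 0.000574), and was not called at the stages between. Srsf11, a member associated with the spliceosome, was the only gene called higher at any later stage, in WT PSA-NCAM+ cells (0.18, SE 0.079, FDR 0.0478), where its groups overlapped. That call was lost with the replicate block (0.0516), with only these groups fitted (0.173), and without ESC WT replicate 2 (0.0727) or 3 (0.182) or PSA-NCAM+ WT replicate 1 (0.317) or 2 (0.0891). Srsf10 was called lower in slow/slow PSA-NCAM+ cells (-0.26, SE 0.10, FDR 0.0275), a call lost without slow/slow ESC replicate 1 (0.0843) or 3 (0.065) or slow/slow PSA-NCAM+ replicate 1 (0.192). Fitting only ESCs and PSA-NCAM+ cells left 2 of the 6 decreases of the slow/slow PSA-NCAM+ stage. The share of all genes called lower in that fit is not given here.

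Compared per length, by the authors' mean RPKM, Srsf2 was the most abundant of the 10 in WT ESCs (276), followed by Srsf5 (212), Srsf7 (132), Srsf6 (110), Srsf1 (90.7), Srsf3 (87.0), Srsf9 (63.3), Srsf11 (54.6), Srsf4 (47.8) and Srsf10 (46.9). In WT neurons Srsf2 (140 RPKM) and Srsf5 (119 RPKM) still led and Srsf10 (30.1 RPKM) was again the lowest. The deposited RPKM values are group means without a spread, so neighbours in this order cannot be separated. The 10 genes followed a common pattern over the 8 group means to unequal degrees. Pearson's r with the mean standardised pattern, which contains each gene itself, was 0.98 for Srsf10, 0.973 for Srsf1, 0.964 for Srsf6 and 0.962 for Srsf7, and lowest for Srsf5 (0.794) and Srsf4 (0.692). Of the other genes, Ints7 (0.994), Acin1 (0.98), Ctu2 (0.977), Cherp (0.977) and Tmpo (0.974) had the highest r. These 8 points share libraries and scaling, and the values only describe likeness.

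In GRCm38 Srsf1 lies at chr11:88047373-88053755 and Srsf2 at chr11:116849901-116853094. Srsf3 lies at chr17:29032628-29043373 and Srsf7 at chr17:80200080-80207307, Srsf4 at chr4:131873617-131901706 and Srsf10 at chr4:135855747-135869908. Srsf5 lies at chr12:80945504-80950507, Srsf6 at chr2:162931528-162937121, Srsf9 at chr5:115327177-115333080 and Srsf11 at chr3:158010473-158036639. Srsf2 overlaps Mettl23 and Mfsd11 on the opposite strand, Srsf1 overlaps the antisense gene Gm11508, and Srsf4 and Srsf11 overlap the annotated genes A930004J17Rik and Gm43362 on their own strand, and Srsf4 also Gm12992 on the other. The libraries were made with a stranded kit, but whether counting used the strand was not given in the sources used here, so the counts of these 4 genes may include reads of their neighbours.

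Inclusion of the exons and retention of the introns was then compared. PSI is the percentage of a gene's transcripts that include an exon or retain an intron. An event was called when the group means differed by more than 10 points and the posterior probability of the sign was over 0.95, among events that passed the filters on coverage and on balance between the junctions in all 6 samples. Of the 23 exons 7, 8, 9 and 10 passed at the 4 stages in order of differentiation, and of the 29 introns 22, 23, 21 and 21. In none of the 4 genotype comparisons was an exon or intron of an SR protein gene called. Of all exons tested 0.809%, 2.93%, 0.966% and 3.55% were called at the 4 stages, and of all introns 0.0541%, 0.321%, 0.0838% and 0.26%, so a count of 0 among so few events was near the background. Limma on the logit of the reads, with the same limit of 10 points, also called 0.

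Many of these exons failed only the balance filter, which compares reads over the upstream and the downstream junction. Without it 18, 18, 19 and 19 exons and 29, 29, 29 and 29 introns could be tested, and 0.788%, 2.83%, 0.942% and 3.4% of all exons and 0.146%, 0.59%, 0.166% and 0.443% of all introns were called. Among the SR protein genes this added 1 exon and 1 intron in NPCs, 1 intron in PSA-NCAM+ cells and 2 exons in neurons. They are described with their genes and rest on reads that are uneven between junctions.

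**Figure D3:**
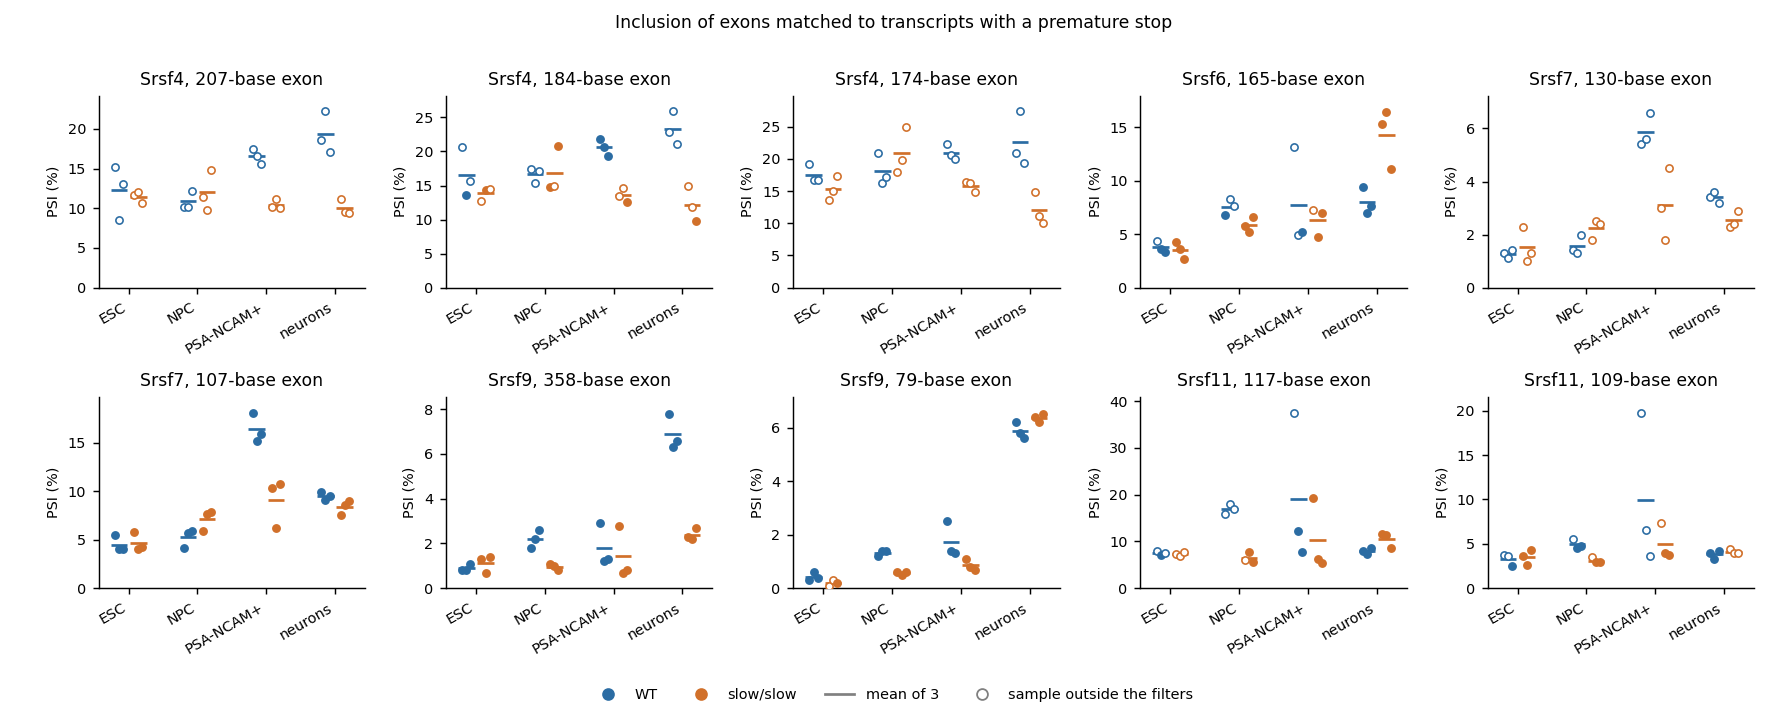
Inclusion (PSI, percent, axes from 0) of the 10 exons matched to transcripts with a premature stop in every sample, WT in blue and slow/slow in orange, with lines for the mean of 3 and open points for samples outside the coverage or balance filters. In neurons WT lies above slow/slow for the Srsf4 and Srsf7 exons and the 358-base Srsf9 exon, and below it for the Srsf6 exon.

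Srsf9 encodes a small SR protein with a short RS domain, and its 358-base poison exon (mm9 chr5:115778356-115778713) was better measured than most, with 384 to 1254 reads in each sample and all samples inside the filters. Its inclusion was 7.8, 6.3 and 6.6% in WT neurons and 2.3, 2.2 and 2.7% in slow/slow neurons. The groups did not overlap, but the difference of -4.48 points was under the limit of 10 (limma FDR 0.000179). In ESCs it was 0.8, 0.8 and 1.1% in WT and 1.3, 0.7 and 1.4% in slow/slow cells. Inclusion was thus high in WT neurons alone of the 8 groups, and the genotype difference in neurons departed from that in ESCs by the interaction test (-4.7 points, limma FDR 0.0177). Of all exons and introns tested, 0.736% passed this interaction. The Srsf9 gene itself had a log2 change of -0.01 in neurons.

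The 79-base Srsf9 exon (mm9 chr5:115781470-115781548), which is coding in Srsf9-204, moved with stage in both genotypes. It was 0.3 to 0.6% in WT ESCs and 0.1 to 0.3% in slow/slow ESCs. In neurons it was 6.2, 5.8 and 5.6% in WT and 6.4, 6.2 and 6.5% in slow/slow cells. The genotypes were thus close to each other in neurons and well above the ESC values, unlike the 358-base exon of the same gene.

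The Srsf6 exon of 165 bases (mm9 chr2:162758551-162758715) showed the opposite difference in neurons. It was 9.4, 7.0 and 7.6% in WT and 15.3, 16.4 and 11.1% in slow/slow neurons, without overlap and with 562 to 1405 reads in each sample (6.27 points, limma FDR 0.00168). In ESCs it was 4.4, 3.6 and 3.3% in WT and 4.3, 3.6 and 2.7% in slow/slow cells. The rise from slow/slow ESCs to slow/slow neurons was called (3.52 to 14.3%, 10.7 points), where 3.89% of all exons were called. The call was lost without neuron slow/slow replicate 2 and with a limit of 15 points. The ESC samples of the WT group did not all pass the filters, so the interaction was not tested for this exon.

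Srsf7 showed its highest poison exon inclusion in WT PSA-NCAM+ cells. The 107-base exon (mm9 chr17:80604315-80604421), which holds the stop codon printed above for Srsf7-203, was included in 18.1, 15.2 and 15.9% of transcripts in WT and 10.3, 6.2 and 10.7% in slow/slow PSA-NCAM+ cells. The groups did not overlap, but the difference of -7.34 points was under the limit. The limma FDR was 0.499, and 0.00545 with the replicate number as a block, which pairs the samples at this stage, and inclusion was lower in slow/slow cells in 3 of 3 pairs. In ESCs inclusion was 5.5, 4.0 and 4.0% in WT and 5.8, 4.0 and 4.2% in slow/slow cells. The rise from WT ESCs to WT PSA-NCAM+ cells was called (4.48 to 16.4%, 11.9 points), where 1.55% of all exons were called, and was lost with a limit of 15 points and with limma and the replicate number as a block (FDR 0.166). In neurons the exon was at 9.9, 9.1 and 9.5% in WT and 7.5, 8.6 and 9.0% in slow/slow cells. The 130-base part of the same annotated exon stayed at 1.0 to 6.6% in all samples and passed the balance filter in none of them.

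Srsf4 encodes an SR protein with a long RS domain. Its exons of 207, 184 and 174 bases lie one after another in the first intron, and their levels were alike. The 207-base exon (mm9 chr4:131440191-131440397), which holds the stop codon, was at 18.6, 22.3 and 17.1% in WT and 11.2, 9.5 and 9.4% in slow/slow neurons. The 184-base exon was at 22.8, 26.0 and 21.1% beside 15.0, 11.8 and 9.8%, and the 174-base exon at 21.0, 27.5 and 19.4% beside 14.9, 11.1 and 10.0%. For all 3 exons the WT neurons lay above the slow/slow neurons. The 207- and 174-base exons passed the balance filter in no sample, and the 184-base exon did so in a minority. Without it the 184- and 174-base exons were called in neurons (-11.1 and -10.6 points), and the 207-base exon was at -9.33 points. In PSA-NCAM+ cells the 207-base exon was at 17.4, 16.6 and 15.6% in WT and 10.1, 11.2 and 10.0% in slow/slow cells, again without overlap, whereas in NPCs the groups overlapped. The Srsf4 gene was higher in slow/slow cells at all 4 stages.

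In Srsf11 the 117-base exon (mm9 chr3:157686207-157686323) was at 15.9, 17.9 and 16.9% in WT and 6.1, 7.8 and 5.6% in slow/slow NPCs. The groups did not overlap, and without the balance filter, which all 3 WT NPC samples failed, the exon was called (-10.4 points). In PSA-NCAM+ cells it was at 37.4, 12.3 and 7.7% in WT and 19.2, 6.2 and 5.4% in slow/slow cells. In each genotype replicate 1 was far above the others, so the size of the mean difference there rests largely on these libraries. The groups overlapped, but within each replicate number the slow/slow value was below the WT value. In neurons it was at 7.9, 7.3 and 8.7% in WT and 11.6, 11.3 and 8.7% in slow/slow cells. All neuron samples passed the filters for this exon. The difference of 2.59 points was under the limit and opposite in sign to that in NPCs (limma FDR 0.0424). The 109-base exon (mm9 chr3:157687087-157687195) ran from 2.5 to 19.7% over the samples, its highest value again in PSA-NCAM+ WT replicate 1, and it stayed between 3.3 and 4.4% in neurons of both genotypes.

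Of the other 13 exons, several stayed near full or no inclusion and the rest varied. The 187-base Srsf1 exon, described below with an intron of that gene, ran from 76.1 to 99.8%. Srsf10 (360 bases), Srsf4 (90 bases) and Srsf11 (132 bases) had exons at 98.8 to 100% in every sample. Exons of Srsf11 (76 bases), Srsf2 (45 bases) and Srsf4 (105 bases) were at 6.3% or less. The 64-base Srsf11 exon reached 11.1% in PSA-NCAM+ WT replicate 1 and 3.3% or less in the other samples. The 36-base Srsf7 exon, which is coding in the principal transcript, ran from 81.5 to 89.5%. The 112-base Srsf11 exon went from 8.4, 8.9 and 8.7% in WT ESCs to 0.8, 0.5 and 1.3% in WT neurons (-7.83 points, limma FDR 7.87e-05). The 104-base Srsf2 exon was at 0.1 to 3.9% in all samples, highest in neurons. The 71-base Srsf5 exon and the 57- and 76-base Srsf11 exons passed the coverage filter in no sample.

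Beside the stage calls named above, no exon or intron of an SR protein gene was called between a later stage and ESCs. The share of all exons called was 2.42% in NPCs and 5.31% in neurons of the WT, and 0.763% in NPCs and 1.71% in PSA-NCAM+ cells of the slow/slow genotype. The share of all introns called was 0.3%, 0.31% and 1.0% in WT NPCs, PSA-NCAM+ cells and neurons, and 0.119%, 0.436% and 0.639% in the slow/slow cells. With so few SR protein events a count of 0 is again near these shares.

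Retention was low for most introns. Of the 29 introns 6 had a mean PSI over 10% in at least 1 group, and the other 23 did not exceed 8.3% in any sample. The 6 were the 368- and 196-base introns of Srsf1, the 1059-base intron of Srsf2, the 1283-base intron of Srsf6 and the 874- and 1377-base introns of Srsf7. By length they matched introns 2 and 3 of Srsf1-205, intron 2 of Srsf2-201, which lies after the stop codon, intron 2 of Srsf6-203, and introns 3 and 5 of Srsf7-201. The 165-base exon of Srsf6 lies inside the 1283-base intron, and the 107- and 130-base exons of Srsf7 inside the 874-base intron.

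**Figure D4:**
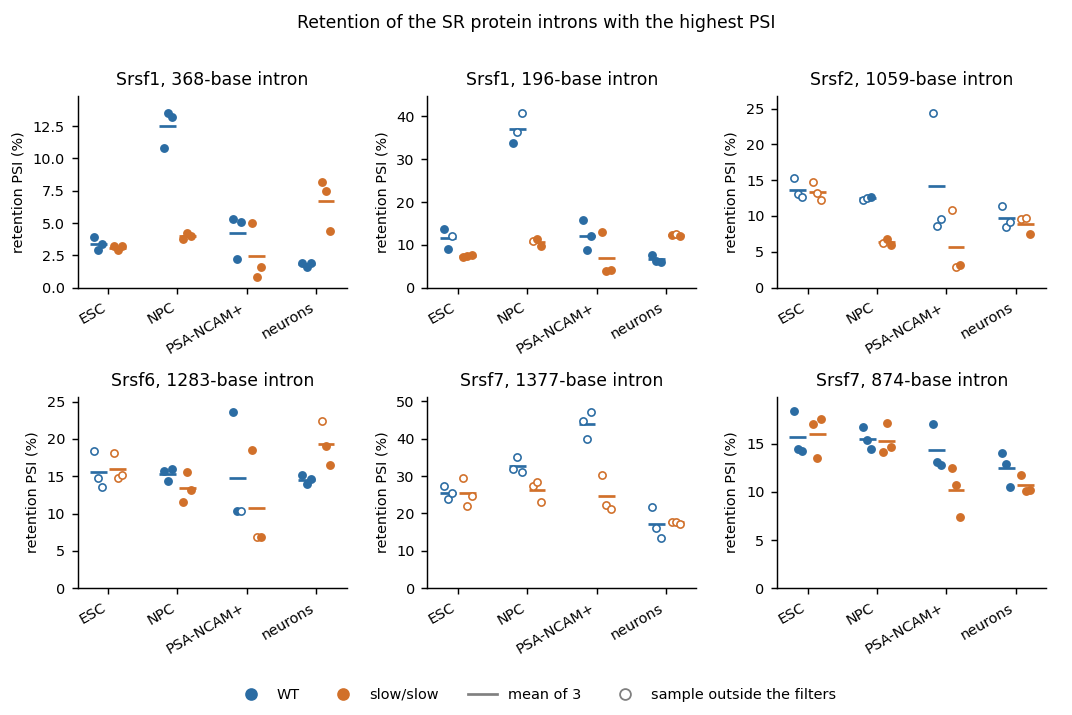
Retention (PSI, percent, axes from 0) of the 6 SR protein introns with a group mean over 10% in every sample, WT in blue and slow/slow in orange, with lines for the mean of 3 and open points for samples outside the filters. The Srsf1 introns of 368 and 196 bases stand out in WT NPCs, and in PSA-NCAM+ cells replicate 1 is the highest of its group for both genotypes in all introns but the 1377-base intron of Srsf7.

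The Srsf1 introns showed the clearest difference between genotypes. The 368-base intron (mm9 chr11:87862177-87862544) was retained in 10.8, 13.5 and 13.2% of transcripts in WT NPCs and 3.8, 4.2 and 4.0% in slow/slow NPCs, with 692 to 1715 reads in each sample. In ESCs it was at 3.9, 2.9 and 3.4% in WT and 3.2, 2.9 and 3.2% in slow/slow cells. WT NPCs thus stood alone at this stage, with a difference of -8.53 points that was under the limit of 10 (limma FDR 0.000267). In neurons the order was turned around, with 1.9, 1.6 and 1.9% in WT and 8.2, 7.5 and 4.4% in slow/slow cells (4.88 points, limma FDR 0.000249). Both interactions with ESCs passed, at -8.2 points for NPCs (limma FDR 0.00199) and 5.21 points for neurons (limma FDR 0.00241). The share of all exons and introns that passed was 0.277% for NPCs, 0.00351% for PSA-NCAM+ cells, where 0 events of SR protein genes passed, and 0.736% for neurons. For PSA-NCAM+ cells 2 of the SR protein events had an unadjusted limma p under 0.05. These were the 107-base Srsf7 exon (0.0179) and the 112-base Srsf11 exon (0.0205), each with a limma FDR of 0.736. The share of all events under this p is not given here, so the count only describes the members.

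The 196-base intron of Srsf1 (mm9 chr11:87862718-87862913) was at 33.9, 36.4 and 40.8% in WT NPCs and 10.8, 11.3 and 9.8% in slow/slow NPCs, the largest difference of any SR protein event. It failed the balance filter in 2 of the 3 WT NPC samples, and without that filter it was called (-26.4 points), as was its rise from 11.6% in WT ESCs to 37.1% in WT NPCs. A 187-base exon event of Srsf1 starts at the base after this intron and was at 79.8, 76.1 and 80.2% in WT and 97.1, 97.3 and 98.8% in slow/slow NPCs, but passed the balance filter in no sample. In neurons the 196-base intron was at 7.7, 6.3 and 5.9% in WT and 12.3, 12.5 and 12.1% in slow/slow cells. The 196-base intron thus had the same order of the genotypes as the 368-base intron at both stages.

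The 1377-base intron of Srsf7 (mm9 chr17:80602085-80603461) was at 44.7, 40.0 and 47.1% in WT and 30.2, 22.3 and 21.2% in slow/slow PSA-NCAM+ cells. No sample passed the balance filter. Without it the intron was called in this comparison (-19.4 points) and between WT ESCs and WT PSA-NCAM+ cells (25.5 to 43.9%). WT PSA-NCAM+ cells were thus the group with the highest values for this intron and for the 107-base exon of the same gene. In neurons retention was 21.7, 16.1 and 13.4% in WT and 17.8, 17.8 and 17.2% in slow/slow cells, and the groups overlapped. The 874-base intron of Srsf7, which passed the filters in all samples, ran from 7.4 to 18.4%.

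The Srsf2 intron of 1059 bases (mm9 chr11:116712276-116713334) was at 12.2, 12.5 and 12.7% in WT and 6.2, 6.8 and 5.9% in slow/slow NPCs, and at 12.6 to 15.3% and 12.2 to 14.7% in WT and slow/slow ESCs. The NPC groups did not overlap, but most samples failed the balance filter and the difference was under 10 points. In PSA-NCAM+ cells it was at 24.4, 8.6 and 9.6% in WT and 10.9, 2.9 and 3.2% in slow/slow cells. The Srsf6 intron of 1283 bases was at 23.6, 10.3 and 10.4% and at 18.5, 6.9 and 6.8% in the same samples. Replicate 1 of each genotype was more than double the others for the Srsf2 and the Srsf6 intron alike. Within each replicate number the slow/slow value was below the WT value for both introns.

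Genes around the SR proteins were read from the same fit. Of 10 SR protein kinases and import factors, 3, 3, 3 and 1 were called higher in slow/slow ESCs, NPCs, PSA-NCAM+ cells and neurons and 0, 2, 0 and 1 lower, with median log2 changes of 0.24, 0.07, 0.22 and -0.09. Over all genes 18.5%, 29.3%, 28.6% and 23.4% were called higher, so the counts called higher were near that background or, in neurons, below it. Prpf4b, a kinase of the spliceosome, had log2 changes of 0.51, 0.71 and 0.45 at the first 3 stages (FDR 0.000661, 1.31e-05 and 0.00104). Srpk1, the main cytoplasmic SR protein kinase, had 0.32, 0.27 and 0.27 (FDR 0.00641, 0.0124 and 0.0135). No kinase was called at all 4 stages, and Srpk2 (-0.52, FDR 3.96e-05) and Clk3 (-0.54, FDR 0.00142) were lower in slow/slow NPCs.

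Of 16 other splicing proteins with RS domains, 5, 9, 11 and 3 were called higher and 0, 0, 0 and 2 lower at the 4 stages, with median log2 changes of 0.18, 0.25, 0.34 and 0.15. The same shares of all genes apply (18.5%, 29.3%, 28.6% and 23.4% higher), and the neuron count was below its share. Acin1, a partner of the exon junction complex, was called higher at every stage (0.27, 0.56, 0.47 and 0.27, FDR 0.017, 2.74e-05, 0.000167 and 0.0154), as was Snrnp70, a protein of the U1 particle (0.18, 0.21, 0.29 and 0.40, FDR 0.0317, 0.0104, 0.00097 and 4.26e-05). Of 8 NMD factors tested from a list of 10, 4, 4, 5 and 1 were called higher and 0, 0, 0 and 1 lower, with median log2 changes of 0.25, 0.28, 0.30 and -0.03, beside the same shares of all genes, and the neuron count was again below its share. Upf3a, which binds the exon junction complex, was called higher at every stage (0.62, 0.54, 0.43 and 0.40, FDR 3.02e-07, 9.31e-07, 1.15e-05 and 2.87e-05). The medians of these lists were below those of the 10 SR protein genes at each stage, and this difference was not tested.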

How the data were processed

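Poly(A)+ RNA had been sequenced in 24 mouse samples, as paired-end reads, after TruSeq stranded library preparation. The authors processed the reads with vast-tools on mm9 and deposited raw counts of reads for every gene, not normalised, and RPKM values that the authors averaged over the replicates of a group. For splicing the authors deposited PSI in percent, per event and library, with quality scores and corrected read numbers. A second splicing table of the authors, with 1 estimate per group, and their own fold changes and FDR values were not used. bcl2fastq 2.17.1.14 is listed in the submitters' processing notes.

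Samples were grouped by the stage and genotype in their titles. The members and the gene lists were chosen with earlier results of these data known. Counts were tested with edgeR 4.0.16 in R 4.3.3 (filterByExpr, TMM scaling, quasi-likelihood F test, a model of 8 groups over all 24 samples, 16627 genes, 13 contrasts, Benjamini-Hochberg FDR under 0.05). Total counts per sample limited precision little, as each member had at least 2397 counts in every sample. CPM values are TMM-scaled. Exons needed sufficient coverage and balanced junctions, introns at least 15 reads and no imbalance at p under 0.05. Each sample of a comparison had to pass. Calls used beta posteriors of the reads with a uniform prior (over 10 points and a probability over 0.95, the study's probability limit being read in this form), and interactions limma 3.58.1 on the empirical logit (0.5 added to the reads). Exons were matched to GENCODE transcripts on GRCm38 by length, and coordinates were never converted. Named were all members, the events matched to NMD transcripts, events called between genotypes, or between stages with 20 points or more, and list genes called at every stage. Further events were named after their values were seen, as were Prpf4b, Srpk1, Srpk2 and Clk3. The edgeR, posterior and limma tests were each tried on simulated data, whereas the matching of exons to transcripts was not. DESeq2 1.42.0, other scalings and filters, each sample left out and the replicate number as a block were tried as alternatives. Samples with the same number deviated together only between WT and slow/slow PSA-NCAM+ cells (correlations 0.54, 0.455 and 0.401), so pairing by number was drawn from the data. For splicing the block was fitted within each comparison. For genes it was shared by all stages and changed no genotype call of a member. The gene block therefore does not test pairing within PSA-NCAM+ cells.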

Additional observations from a re-analysis of the deposited data

Results flagged for a closer look

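The genotype effect differed between stages for 4 genes and 2 splicing events, by the interaction test of the difference itself. For Srsf1, Srsf3 and Srsf6 the log2 change in slow/slow over WT cells was larger in NPCs than in ESCs, by 0.64, 0.78 and 0.67 (edgeR FDR 0.027, 0.0099 and 0.00225), where 24.6% of all genes passed this test. The Srsf1 call was lost in 7 of the 12 fits that left out 1 sample (FDR 0.0525 to 0.0606). For Srsf5 it was larger in neurons than in ESCs by 0.44 (edgeR FDR 0.0417), the only 1 of the 10 genes to pass where 42.1% of all genes did, and the call was lost in 11 of the 12 fits that left out 1 sample (FDR 0.0525 to 0.0904).

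Retention of the 368-base intron of Srsf1 differed in both directions. The genotype difference in PSI was -8.2 points in NPCs relative to ESCs (limma FDR 0.00199) and 5.21 points in neurons relative to ESCs (limma FDR 0.00241). Inclusion of the 358-base exon of Srsf9 differed in neurons relative to ESCs by -4.7 points (limma FDR 0.0177). Events outside the balance filter, such as the 196-base intron of Srsf1, were not tested for an interaction.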

How the results depend on the processing

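Of the number of SR protein genes called, only those values that moved by more than 1.5 times are given. The share of all genes called in each alternative is not given here, so these counts only describe the members. Fitting only the groups compared gave 3 for genotype in PSA-NCAM+ cells, 9 for genotype in neurons, 2 for slow/slow PSA-NCAM+ cells against ESCs, and 6 and 5 for the interactions in NPCs and neurons. Upper-quartile scaling gave 8 for genotype in neurons and 2 for the neuron interaction. It moved the median of all genes by 0.14, -0.19 and 0.16 on the log2 scale for genotype in neurons, WT neurons against ESCs and the neuron interaction. DESeq2 gave 2 for the interactions in PSA-NCAM+ cells and neurons. The replicate block gave 1 and 2 for these interactions, and moved no other count of genes by over 1.5 times. Outside the PSA-NCAM+ genotype comparison the replicates share only a number (correlations from -0.0841 to 0.0677). Leaving out PSA-NCAM+ replicate 1 of both genotypes, added after seeing the data, gave 6 for the PSA-NCAM+ interaction. Leaving out 1 sample gave 5 to 7 of 10 genes for genotype in ESCs, 9 to 10 in NPCs, 7 to 9 in PSA-NCAM+ cells and 4 to 5 in neurons. Against ESCs it gave 8, 8 to 9 and 7 to 8 in WT and 4, 5 to 6 and 8 in slow/slow cells, and for the interactions 2 to 4, 0 to 6 and 0 to 1. The Srsf9 change in neurons, -0.01, turned to 0.13 with upper-quartile scaling, 0.05 in the neuron-only fit, and ran from -0.08 to 0.03 when 1 sample was left out (0.00 and 0.03 without WT replicate 3 and slow/slow replicate 1), and never passed the threshold.

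Without the balance filter 1 exon and 1 intron were called in NPCs, 1 intron in PSA-NCAM+ cells and 2 exons in neurons between genotypes, and 1 intron each in WT NPCs and WT PSA-NCAM+ cells against ESCs. For the comparisons with ESCs, the share of all introns called without this filter is not given here. A limit of 15 points left 0 of the stage calls of exons, and limma with the replicate block left 0 in WT PSA-NCAM+ cells. Between genotypes in PSA-NCAM+ cells the replicate block brought 8 events under a limma FDR of 0.05, all with differences under 10 points. The share of all exons and introns that did so is not given here, so this count only describes the SR protein events. Leaving out 1 sample gave 0 to 1 exon for slow/slow neurons against ESCs. The cause of these differences was not tested beyond the construction of each alternative.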
